A study of Mus musculus with 12 samples.

Results

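Slow type I and fast type IIb myofibers of endurance-trained mice were compared by RNA sequencing, with 3 libraries of each fibre type, 6 of the 12 libraries of the series. The 6 were chosen by their labels alone, and no value of the RNA data entered the choice. All mice of the study were male C57BL/6J with a labelled age of 8 weeks, which the labels place neither before nor after the training. The trained type I group and the trained type IIb group both ran on a treadmill for 6 weeks, on 5 days a week, for 60 min at 12 to 16 m/min, and were killed after 3 days without running. Type I fibres came from the soleus and type IIb fibres from the extensor digitorum longus, a fast muscle of the lower leg. Soleus was digested in collagenase (2 mg/ml, 37 °C) for 90 min and extensor digitorum longus for 60 min, so fibre type, muscle and digestion time cannot be told apart. One piece of each fibre served to type the myosin heavy chain protein and the rest was lysed for complementary DNA synthesis. The labels name no animals, so p-values measure the spread between libraries, which may be partly technical. The other 6 libraries, from untrained mice, entered the shared fit and serve below only to set the trained difference beside the untrained one. The comparison asks which genes separate the slow from the fast fibre once the mice have been trained.

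A muscle fibre builds its sarcomere, its calcium store and its fuel supply from families of paralogous genes, of which slow and fast fibres use different members. Type I fibres contract slowly, resist fatigue and burn fat and lactate in mitochondria. Type IIb fibres contract fast, tire early and draw on phosphocreatine, glycogen and glycolysis.

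Library totals were 9692597, 10124294 and 13919488 counts in trained type I libraries 1, 2 and 3, and 9488692, 8026397 and 15292039 counts in trained type IIb libraries 1, 2 and 3. Genes with at least 10 counts numbered 6082, 6517 and 11852 in type I and 4291, 5910 and 10932 in type IIb libraries, a difference of 1106 genes with p = 0.5 (exact permutation of the group means, two-sided, smallest possible p 0.1). The difference turned to -744.8 genes without type I library 3 and to -270.7 without type IIb library 1. Library 3 of each fibre type thus held the most genes. Across genes, libraries of one trained group correlated with Pearson r between 0.58 and 0.69. One count was worth 0.0654 to 0.125 CPM (counts scaled to library total), and 3 counts over a group was the floor used where a group had none.

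The defining myosins matched the labels in all 6 libraries. Fibres had been typed by their myosin heavy chain protein, so this match was largely set by that typing. The Myh7 and Myh4 results, wherever they are counted below, check the labels and are not an independent finding. Myh7, the slow myosin heavy chain of type I fibres, had 10603, 1399 and 13440 counts in type I libraries 1, 2 and 3 and 0, 0 and 1 counts in type IIb libraries 1, 2 and 3, the order used for every list of 3 values below. Myh4, which marks type IIb fibres, had 13, 7 and 30 counts in type I and 209693, 563826 and 825080 counts in type IIb libraries. Myh2, which marks type IIa fibres, had 0, 0 and 17 counts in type I and none in type IIb libraries. Myh1, which marks type IIx fibres, had 3, 123 and 0 counts in type I and 668, 58 and 108 counts in type IIb libraries. The 123 counts made up 8.04% of the counts of these 4 genes in type I library 2, which was the largest share of any heavy chain other than the one that names the fibre. Neither Myh2 nor Myh1 passed the test (edgeR adjusted p = 0.708 and 0.912).

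Of 11747 genes tested, 28 were higher (0.238%) and 35 lower (0.298%) in trained type I fibres, relative to trained type IIb fibres, 63 in all (0.536%), counted at an adjusted p under 0.05 (quasi-likelihood test of edgeR, Benjamini-Hochberg adjustment). All 63 had their 3 type I libraries entirely above or entirely below their 3 type IIb libraries, as did 10.5% of all genes tested (6.72% with type I above and 3.77% with type I below). The sizes in the 2 directions were unlike. The median log2 fold change of the higher genes was 12.96, since 13 of the 28 had at most 3 counts in all type IIb libraries together, while that of the lower genes was -4.63 and 6 of the 35 had at most 3 counts in type I libraries. Over all genes tested the median was 0.21, with 6387 log2 fold changes above 0 and 5360 below. Of the 63 genes, 43 belonged to the lists of contractile, metabolic and stress genes described below. The number higher fell to 17 without type I library 1, 18 without type I library 2 and 13 without type IIb library 2. The number lower fell to 19 without type I library 1 and 16 without type IIb library 2.

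Slow contractile genes, those of calcium handling included, formed the largest group of the higher genes, with 13 of 16 tested list members called higher and none lower. Their median log2 fold change was 14.04 (13.24 with the 3 members that had no type IIb count set to their lower bound). In the thick filament, Myl2 (ENSMUSG00000013936, mm10 chromosome 5, 122100951 to 122113472), the slow regulatory light chain, stood at 12477, 25396 and 3662 CPM, CPM being scaled by TMM here and for every single gene below, with 0, 1 and 0 counts in type IIb libraries. Myh7 (chromosome 14, 54970684 to 54994626) varied most of the 3 within type I fibres, at 1319, 165 and 598 CPM, and had a single count in type IIb fibres. The slow essential light chain Myl3 had 11706, 10544 and 6741 CPM in type I and 3, 1 and 4 counts in type IIb libraries. No type IIb library came near any type I library for these 3 genes. The ratio of type I to type IIb was 276585 for Myl2 (95% counting interval 49641 to 10924600.0, edgeR adjusted p = 2.17e-07). For Myh7 the ratio was 17675 (interval 3172 to 698146, edgeR adjusted p = 9.38e-06), and for Myl3 it was 29090.1 (edgeR adjusted p = 0.00158). Overlapping genes cover 13.3% of the exon bases of Myh7, and the library kit does not mark strand.

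The thin filament showed the same separation. Tnnt1, the slow troponin T that binds tropomyosin, had 11005, 9159.8 and 5570.2 CPM in type I and 0.517, 8.56 and 0.0722 CPM in type IIb libraries. Slow troponin I, Tnni1, the inhibitory subunit, had 2790.3, 1674 and 1193 CPM in type I and 0.129, 0.728 and 3.03 CPM in type IIb libraries. Tnnc1, the slow calcium-binding troponin C, had 6372, 8338 and 6309 CPM in type I and 1, 0 and 1 counts in type IIb libraries. For each of these all type I libraries lay far above the type IIb libraries, and type I library 3 was the lowest. Tpm3, the slow tropomyosin, had 8125, 11999 and 6699 CPM in type I and 1, 1 and 15 counts in type IIb libraries, again without overlap. All 4 were called, at edgeR adjusted p = 0.0210 for Tnnt1, 0.0216 for Tnni1, 0.00178 for Tnnc1 and 0.00363 for Tpm3. The exons of Tnnc1 lie within the gene Nisch on the other strand, which had 2066 counts in type I and 367 in type IIb libraries against 263689 and 2 for Tnnc1.

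At the Z-disc and M-band, Ankrd2, a stretch-responsive ankyrin-repeat protein (chromosome 19, 42036000 to 42045110), had 467, 476 and 801 CPM in type I libraries and no count in type IIb libraries. Myom3, an M-band myomesin (chromosome 4, 135759715 to 135815564), likewise had no type IIb count, against 492, 79.2 and 351 CPM in type I libraries. Myoz2, the slow calsarcin that ties the Z-disc to calcineurin, had 2004, 1949.8 and 497 CPM in type I and 1, 1 and 0 counts in type IIb libraries. Csrp3, the muscle LIM protein, was highest in type I library 3, at 506, 896 and 4859 CPM, and had 0, 1 and 2 counts in type IIb libraries. Ankrd2 was at least 5971-fold and Myom3 at least 2898-fold above type IIb in type I fibres (edgeR adjusted p = 1.42e-06 and 1.19e-04). For Myoz2 and Csrp3 the ratios were 15221 (interval 4213 to 125687) and 27970.4 (interval 9571 to 135633), at edgeR adjusted p = 1.55e-06 and 6.07e-06.

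The slow calcium pump and one of its regulators were higher as well. Atp2a2, the slow sarcoplasmic reticulum pump, had 15741, 6110.0 and 8480.1 CPM in type I and 0.129, 13.5 and 11.1 CPM in type IIb libraries. Sln, sarcolipin, which uncouples pump activity from calcium transport, had 1219.9, 4223 and 2770.0 CPM in type I and 1, 0 and 3 counts in type IIb libraries. The groups did not overlap for either gene, and both were called (edgeR adjusted p = 0.0258 for Atp2a2 and 3.17e-06 for Sln). Of the 3 slow members that were not called, Casq2, the slow calsequestrin, had 367, 84.3 and 249.7 CPM in type I and 0, 0 and 13.6 CPM in type IIb libraries (log2 fold change 5.66 ± 1.72 SE, edgeR adjusted p = 0.312). Pln, phospholamban, had no count in type IIb libraries but still overlapped them, since not every type I library held a count. Mybpc1, the slow myosin-binding protein C, had a log2 fold change of 0.19 (edgeR adjusted p = 0.999). In fits that left out 1 of the 6 libraries, the calls of Myh7, Myl2, Myoz2, Myom3, Csrp3, Ankrd2 and Sln held every time. The call was lost for Myl3 without type IIb library 2 (adjusted p up to 0.107), Tnnc1 without type IIb libraries 2 or 3 (adjusted p up to 0.101), Tpm3 without type I libraries 1 or 2 or type IIb library 2 (adjusted p up to 0.139), Tnnt1 without type I libraries 1, 2 or 3 or type IIb library 1 (adjusted p up to 0.166), Tnni1 without type I libraries 1, 2 or 3 or type IIb libraries 1 or 2 (adjusted p up to 0.475) and Atp2a2 without type I libraries 1, 2 or 3 or type IIb libraries 2 or 3 (adjusted p up to 0.317). With limma-voom and quality weights 5 of the 16 slow members were called. Myl2, Myoz2, Csrp3 and Sln were among the calls lost there (limma-voom adjusted p up to 0.888).

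The fast contractile genes, those of calcium handling included, ran the other way, with 10 of 16 tested list members called lower in type I fibres and none higher. Their median log2 fold change was -6.53, with 15 below 0 and 1 above. Mylpf, the fast regulatory light chain (chromosome 7, 127208890 to 127214298), had 243, 308 and 113 CPM in type I and 28441, 39618 and 17819.6 CPM in type IIb libraries. Myl1, the fast essential light chain, had 1446, 4935 and 425 CPM in type I and 64912, 73354 and 32839.9 CPM in type IIb libraries. These fast light chains were thus still read in type I fibres, whereas Myh4 fell to 1.62, 0.825 and 1.34 CPM in type I against 27102, 102683 and 59552 CPM in type IIb libraries. No library of one fibre type lay within the range of the other for these genes. Relative to type IIb fibres, Mylpf was 139-fold, Myl1 31.0-fold and Myh4 46022-fold lower (log2 fold change -7.02 ± 0.48 SE, edgeR adjusted p = 1.21e-07 for Mylpf, and edgeR adjusted p = 0.0261 and 1.3e-04 for Myl1 and Myh4).

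Mybpc2, the fast myosin-binding protein C (chromosome 7, 44501699 to 44524656), had 0, 0 and 2 counts in type I libraries, against 743, 1820.5 and 1659 CPM in type IIb libraries. Actn3, the fast alpha-actinin of the Z-disc, had 0.124, 15.0 and 17.6 CPM in type I and 1863, 10397 and 5747 CPM in type IIb libraries. Myoz1, the fast calsarcin, had 19.7, 22.6 and 4.32 CPM in type I and 719, 1243 and 1111 CPM in type IIb libraries. For each of the 3 the highest type I library stayed below the lowest type IIb library. Tpm1, the tropomyosin that predominates in fast fibres, had 679.5, 676 and 171 CPM in type I and 32603, 32542 and 11955 CPM in type IIb libraries. The log2 fold changes were -14.71 ± 1.37 SE for Mybpc2, -9.10 ± 1.59 SE for Actn3, -6.05 ± 0.91 SE for Myoz1 and -5.66 ± 0.79 SE for Tpm1. Their edgeR adjusted p-values were 3.67e-06, 0.0302, 0.00146 and 0.00363 in that order.

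Calcium-handling genes of fast fibres were called lower too. Atp2a1, the fast calcium pump, had 59.5, 70.2 and 18.6 CPM in type I and 906, 889 and 4094 CPM in type IIb libraries. Casq1, the fast calsequestrin that stores calcium, had 137, 222 and 219 CPM in type I and 1454, 3938 and 2646 CPM in type IIb libraries. Pvalb, parvalbumin, a soluble calcium buffer that speeds relaxation, had 0.373, 0.942 and 0.623 CPM in type I and 20819, 56005 and 17603 CPM in type IIb libraries. The groups were apart for all of them, by the narrowest margin for Casq1 (12.7-fold lower, log2 fold change -3.80 ± 0.46 SE, edgeR adjusted p = 1.27e-04). Atp2a1 was 66.2-fold lower (edgeR adjusted p = 3.16e-04), with 21.9% of its exon bases shared with Rabep2, and Pvalb was 41024-fold lower (edgeR adjusted p = 0.0164). Fast troponins were as far apart in level without passing the test. Tnni2, fast troponin I, had 63.2, 325 and 41.3 CPM in type I and 19227, 42349.8 and 19730.2 CPM in type IIb libraries (log2 fold change -7.56 ± 1.91 SE, edgeR adjusted p = 0.294). For Tnnt3, fast troponin T, named here after its values were seen, the levels were 0.995, 189 and 17.9 CPM in type I and 21395, 33813 and 28235 CPM in type IIb libraries (log2 fold change -8.65 ± 2.41 SE, edgeR adjusted p = 0.420). In fits that left out 1 library, Mylpf, Mybpc2, Casq1, Atp2a1, Myoz1 and Myh4 stayed called each time, and the call was lost for Pvalb and Tpm1 without type I libraries 1, 2 or 3 or type IIb library 2 (adjusted p up to 0.182 and 0.212), Actn3 without type I libraries 2 or 3 or type IIb libraries 1, 2 or 3 (adjusted p up to 0.398) and Myl1 without type I library 1 or type IIb libraries 1, 2 or 3 (adjusted p up to 0.497). With limma-voom and quality weights 3 of the 16 fast members were called. Mylpf (limma-voom adjusted p = 0.961), Atp2a1, Myoz1 and Myh4 were among the calls lost there. The call of Myh4 was also lost with a replicate block.

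**Figure D1:**
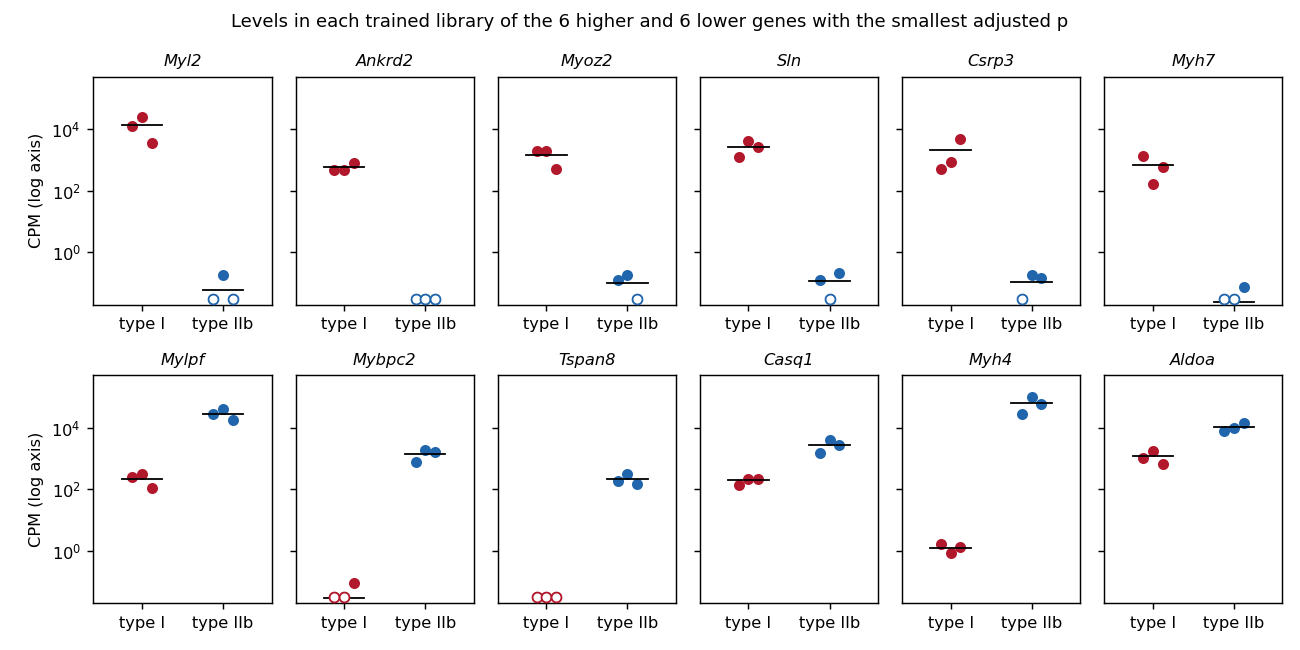
Level in CPM (log axis) of the 6 genes higher and the 6 genes lower in type I fibres with the smallest adjusted p, in trained mice. Each point is 1 library, type I on the left and type IIb on the right, open points at the lower edge are libraries with no count, and lines mark the means of 3 libraries. The fibre types do not overlap for any of the 12 genes; Ankrd2 has no count in type IIb and Tspan8 none in type I fibres.

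The 3 higher and the 3 lower genes of smallest adjusted p were taken among called genes with a single RefSeq start. That start had to lie within 100 bases of the gene start in the deposited table. The promoter sequences of these genes are shown as the regulatory sequence beside genes that moved together. Each is the 250 bases upstream of the RefSeq start (GRCm38.p6), 5′ to 3′ on the gene's strand, with TATA boxes (TATAAA), MCAT elements (CATTCC), MEF2 sites, CArG boxes and MEF3 elements (TCAGGTT) in capitals on either strand. MEF2 sites bind myocyte enhancer factors, and MCAT elements bind TEAD factors. Ankrd2 (chr19:42035777-42036026, plus strand) holds a TATA box, Myoz2 (chr3:123034988-123035237, minus strand) and Myom3 (chr4:135759465-135759714, plus strand) hold a MEF2 site, and Mybpc2 (chr7:44524670-44524919, minus strand) holds an MCAT element read on the other strand. Casq1 (chr1:172219896-172220145, minus strand) and Atp2a1 (chr7:126463074-126463323, minus strand) hold none of these letters in the window.
Ankrd2: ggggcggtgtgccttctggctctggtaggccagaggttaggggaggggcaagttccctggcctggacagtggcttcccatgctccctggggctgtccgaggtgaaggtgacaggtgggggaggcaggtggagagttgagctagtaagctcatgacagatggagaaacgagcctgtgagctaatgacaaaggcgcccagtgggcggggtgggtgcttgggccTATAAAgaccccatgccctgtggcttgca
Myoz2: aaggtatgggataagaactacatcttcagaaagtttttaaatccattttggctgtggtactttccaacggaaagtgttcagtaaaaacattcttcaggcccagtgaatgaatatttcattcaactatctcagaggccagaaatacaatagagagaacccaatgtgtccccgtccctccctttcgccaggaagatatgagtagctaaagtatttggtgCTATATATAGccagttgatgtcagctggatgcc
Myom3: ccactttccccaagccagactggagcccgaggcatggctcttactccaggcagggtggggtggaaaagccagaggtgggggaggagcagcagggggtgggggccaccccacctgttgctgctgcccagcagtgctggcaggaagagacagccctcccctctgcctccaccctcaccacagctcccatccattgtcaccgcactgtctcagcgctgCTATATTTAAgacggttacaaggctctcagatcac
Mybpc2: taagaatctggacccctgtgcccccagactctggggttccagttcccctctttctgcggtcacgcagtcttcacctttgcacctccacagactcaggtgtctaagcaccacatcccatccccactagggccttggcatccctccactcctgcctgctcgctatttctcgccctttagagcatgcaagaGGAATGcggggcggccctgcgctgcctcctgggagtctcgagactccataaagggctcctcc
Casq1: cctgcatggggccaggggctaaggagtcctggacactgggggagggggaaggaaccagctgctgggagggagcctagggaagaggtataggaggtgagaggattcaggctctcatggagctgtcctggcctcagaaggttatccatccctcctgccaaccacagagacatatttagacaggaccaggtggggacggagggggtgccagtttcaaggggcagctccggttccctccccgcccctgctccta
Atp2a1: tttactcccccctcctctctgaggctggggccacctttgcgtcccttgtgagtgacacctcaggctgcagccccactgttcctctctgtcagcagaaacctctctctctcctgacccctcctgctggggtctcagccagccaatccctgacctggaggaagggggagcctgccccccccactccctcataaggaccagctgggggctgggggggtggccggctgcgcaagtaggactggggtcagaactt

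Windows were found for 49 of the 63 genes, 19 of the 28 higher and 30 of the 35 lower. A MEF2 site was present in 3 of the 19 windows of genes higher in type I fibres (15.8%) and in 4 of the 30 of genes lower in type I fibres (13.3%), against 1.92% of the 8276 windows of all genes tested and 2.84% of all 20419 windows. MCAT elements were present in 3 of the 19 higher and 6 of the 30 lower windows, against 10.5% of the windows of genes tested. A TATA box was present in 21.1% and 13.3%, against 6.28%, and a CArG box in 5.26% and 6.67%, against 1.20%. E-boxes (CANNTG, not in capitals above) were present in 73.7% of the higher, 66.7% of the lower and 56.3% of the windows of genes tested. No window of the 49 held a MEF3 element, against 2.73% of genes tested. Each motif was counted on its own on both strands, and a MEF2 site can contain the letters of a TATA box. These shares describe letters in a window and were not tested.

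Isoform pairs set the 2 programs side by side in FPKM, which divides by the gene length of the deposited table. Those lengths can differ widely within a pair, with 2282 bases for Myh7 and 5964 for Myh4. The shares depend on them. In each of 11 slow and fast pairs the share of the slow isoform, in percent of the pair's FPKM, was higher in all type I than in all type IIb libraries. The members of the pairs were named after their values were seen, and many of them are called genes. The count of pairs is thus a description and not independent support for the calls. Myh7 made up 100.0, 99.8 and 99.9% of Myh7 and Myh4 together in type I and at most 0.000317% in type IIb libraries. The switch was nearly as complete for the pumps, where Atp2a2 made up 99.4, 98.3 and 99.7% in type I and 0.00960, 1.01 and 0.182% in type IIb libraries. It was partial in 2 pairs, on opposite sides. Casq2 made up 67.6, 22.9 and 47.0% of both calsequestrins in type I and 0, 0 and 0.400% in type IIb libraries, so that type I fibres carried both forms. Mybpc1 made up 100.0, 100.0 and 100.0% of the pair in type I and 58.4, 39.4 and 45.8% in type IIb libraries, so that type IIb fibres carried both forms of myosin-binding protein C. The essential light chain was also mixed in type I fibres, with Myl3 at 87.5, 64.8 and 93.2% in type I and at most 0.000757% in type IIb libraries. Slow troponin I made up 96.8, 77.7 and 95.1% in type I and at most 0.0104% in type IIb libraries.

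**Figure D2:**
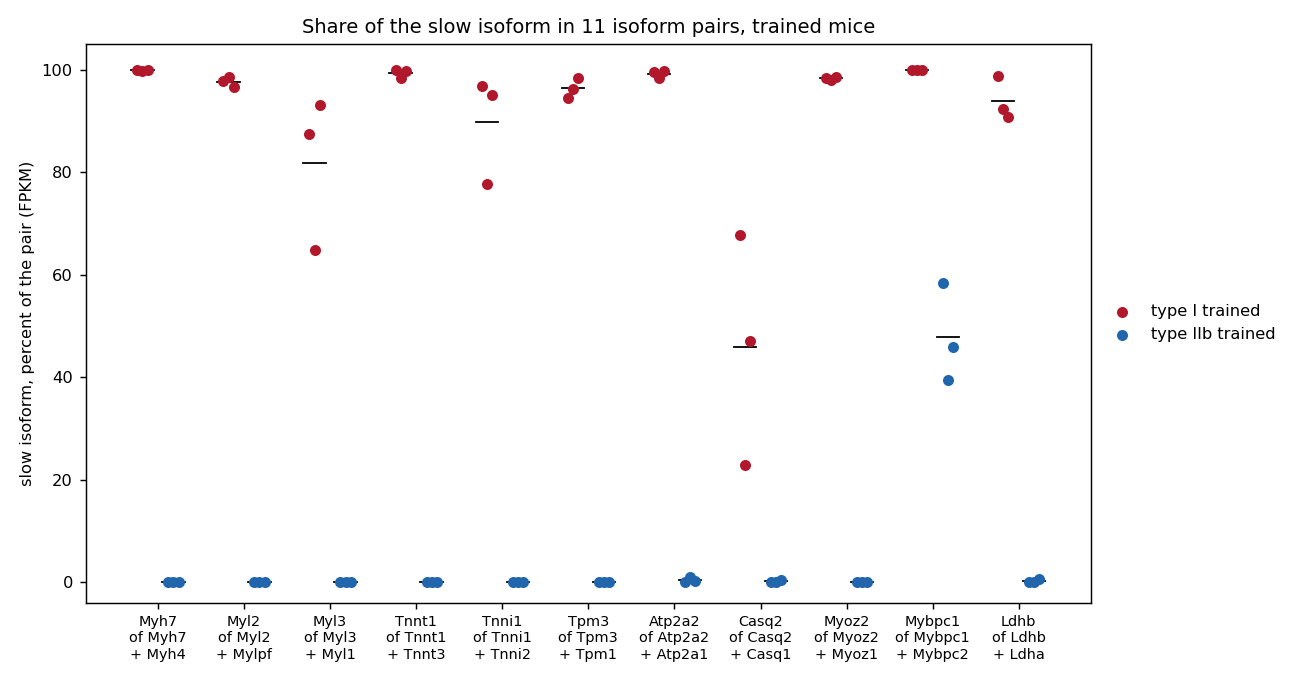
Share of the slow isoform in 11 slow and fast isoform pairs, in percent of the summed FPKM of the pair. Each point is 1 library from trained mice, type I on the left of each pair and type IIb on the right, and lines mark the means of 3 libraries. The members of the pairs were named after their values were seen, and the groups do not overlap in any pair. The lowest type I value is 22.9% (Casq2) and the highest type IIb value 58.4% (Mybpc1).

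Among 17 tested transcriptional regulators of fibre type, 1 was called higher and 1 lower in type I fibres, with a median log2 fold change of -0.37. Vgll2, a cofactor of TEAD factors in muscle, had 463, 192 and 129.9 CPM in type I and 7.63, 6.01 and 10.1 CPM in type IIb libraries. Tbx15, a T-box factor known in mice for its part in glycolytic fibres, had 21.0, 42.1 and 88.8 CPM in type I and 565, 464 and 255 CPM in type IIb libraries. The fibre types did not overlap for either. Vgll2 was 24.8-fold higher (log2 fold change 5.05 ± 1.05 SE, edgeR adjusted p = 0.0272) and Tbx15 5.97-fold lower (log2 fold change -3.08 ± 0.69 SE, edgeR adjusted p = 0.0479). The call was lost for Vgll2 without type I libraries 1 or 2 or type IIb libraries 1, 2 or 3 (adjusted p up to 0.256) and Tbx15 without type I libraries 1 or 2 or type IIb libraries 1 or 2 (adjusted p up to 0.268). Of the 9 alternatives that did not leave out a single library, the call of Vgll2 was lost in 6 (adjusted p up to 0.180) and that of Tbx15 in 8 (adjusted p up to 0.590), limma-voom, the replicate block, edgeR without the filter and edgeR without the robust prior among them for both. DESeq2 called Vgll2 and did not call Tbx15. Maf, a large Maf factor linked to type IIb fibres in mice, had 56.8, 0.118 and 11.4 CPM in type I and 810.5, 468 and 249 CPM in type IIb libraries, a full separation that did not pass (log2 fold change -4.48 ± 1.17 SE, edgeR adjusted p = 0.152). Sox6, a repressor of slow genes, had 12.3, 0.353 and 28.7 CPM in type I and 10.7, 95.1 and 154 CPM in type IIb libraries, which overlap (edgeR adjusted p = 0.641).

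The triad, where the voltage sensor opens the calcium release channel, gave no edgeR call among 13 genes tested (5 at an unadjusted p under 0.05, and none called by DESeq2 or limma-voom), although 12 had log2 fold changes below 0 (median -1.55). Ryr1, the release channel, had 1089, 280.3 and 795 CPM in type I and 1315, 7027 and 3350.0 CPM in type IIb libraries. Trdn, triadin, which anchors calsequestrin to the channel, had 2949, 752 and 1174 CPM in type I and 3251, 7971 and 3077 CPM in type IIb libraries. In both the highest type I library lay just below the lowest type IIb library. Neither passed (log2 fold change -2.43 ± 0.67 SE, edgeR adjusted p = 0.204 for Ryr1, log2 fold change -1.55 ± 0.48 SE, edgeR adjusted p = 0.321 for Trdn).

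Many glycolytic enzymes were lower in type I fibres, with 7 of 14 tested called lower, 1 called higher and a median log2 fold change of -2.76. Aldoa, aldolase, had 1029.8, 1809 and 669 CPM in type I and 7598, 9679 and 14638 CPM in type IIb libraries. Tpi1, triosephosphate isomerase, had 168, 194 and 99.3 CPM in type I and 380.5, 1295 and 1776 CPM in type IIb libraries. Gapdh, the next enzyme of the pathway, had 874, 1248 and 347 CPM in type I and 3481, 4476 and 8461 CPM in type IIb libraries. Each of these separated the fibre types, by the narrowest margin for Tpi1. Pgam2, the muscle phosphoglycerate mutase, had 726, 825 and 411 CPM in type I and 2366, 6734 and 4402 CPM in type IIb libraries. Eno3, the muscle enolase, had 193, 727 and 85.3 CPM in type I and 3088, 6815 and 9671 CPM in type IIb libraries. Pkm, pyruvate kinase, had 532, 613 and 298 CPM in type I and 1147, 5202 and 2496 CPM in type IIb libraries. Type I libraries were again all below type IIb libraries. The folds were 11.7 for Aldoa, 9.54 for Tpi1, 9.56 for Gapdh, 7.58 for Pgam2, 29.2 for Eno3 and 6.41 for Pkm, each lower in type I fibres, at edgeR adjusted p = 3.08e-04, 0.0207, 0.00368, 0.00416, 0.00833 and 0.0207 in that order. A fit of the 6 trained libraries alone called 1 of the 14 enzymes lower.

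Lactate handling split by isoform. Ldha, the lactate dehydrogenase subunit that predominates in glycolytic fibres, had 62.6, 239 and 133 CPM in type I and 1643, 1409.8 and 2866 CPM in type IIb libraries. Ldhb, the subunit of oxidative tissue, had 4924, 2961 and 1363 CPM in type I and 0.258, 0.182 and 16.7 CPM in type IIb libraries. Slc16a3, which encodes MCT4, the lactate exporter of glycolytic cells, had 0, 0 and 1 counts in type I libraries, against 49.4, 261 and 163 CPM in type IIb libraries. All 3 separated the fibre types, and Ldhb ran opposite to the other two. Ldha was 15.7-fold lower and Ldhb 283-fold higher in type I fibres (log2 fold change -3.77 ± 0.57 SE, edgeR adjusted p = 0.00157 for Ldha, log2 fold change 9.06 ± 1.68 SE, edgeR adjusted p = 0.0430 for Ldhb). For Slc16a3 the type IIb to type I ratio was 5870.1 (interval 1053 to 231911, edgeR adjusted p = 0.00202). Slc16a1, the importer MCT1, had a log2 fold change of 2.61 without passing (edgeR adjusted p = 0.618). Among the calls of glycolysis and lactate handling, Aldoa, Gapdh, Pgam2, Ldha and Slc16a3 held whichever library was left out. The call was lost for Tpi1 without type I libraries 1 or 3 or type IIb libraries 2 or 3 (adjusted p up to 0.0772), Eno3 without type I library 1 or type IIb library 2 (adjusted p up to 0.418), Pkm without type I libraries 1 or 3 or type IIb library 2 (adjusted p up to 0.239) and Ldhb without type I libraries 1, 2 or 3 or type IIb library 2 (adjusted p up to 0.271).

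**Figure D3:**
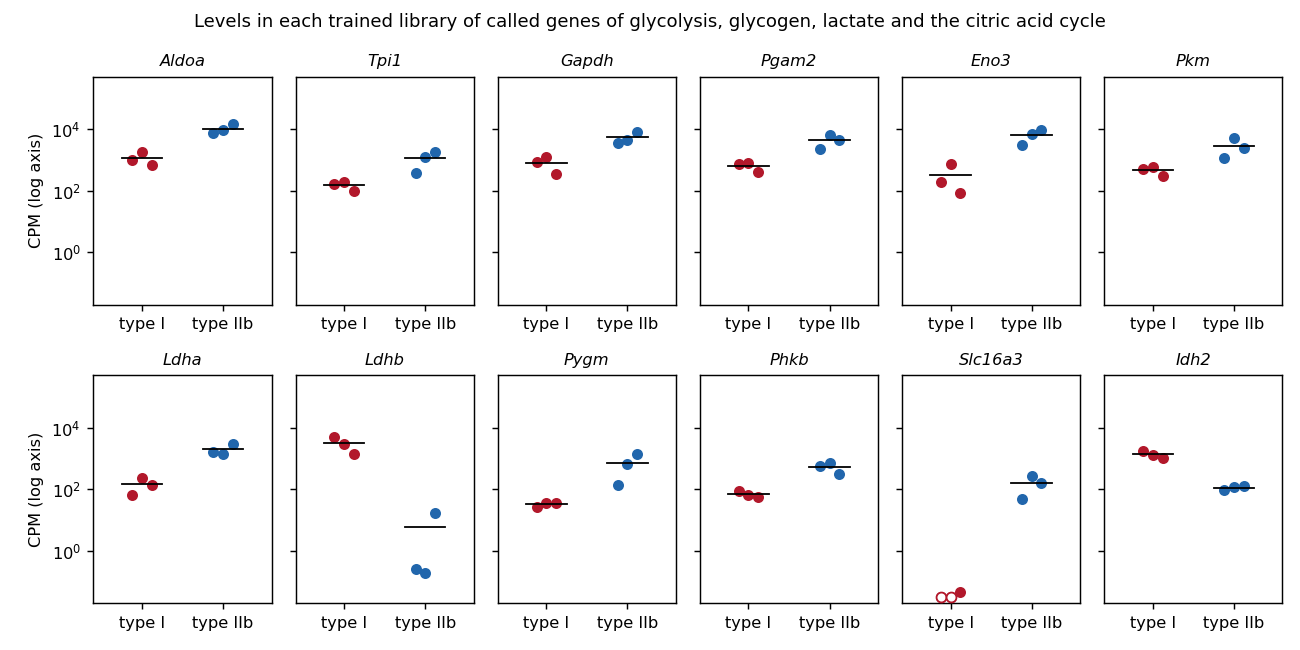
Level in CPM (log axis) of 12 called genes of glycolysis, glycogen breakdown, lactate handling and the citric acid cycle in trained mice. Each point is 1 library, type I on the left and type IIb on the right, open points at the lower edge are libraries with no count, and lines mark the means of 3 libraries. Ldhb and Idh2 are higher in type I fibres and the other 10 are lower, with no overlap between fibre types.

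A few genes of glycogen breakdown and high-energy phosphate use were also called lower, 2 of 15 glycogen genes and 2 of 7 genes of phosphocreatine and adenylate use. Pygm, muscle glycogen phosphorylase, had 26.7, 36.6 and 35.6 CPM in type I and 142, 665 and 1399 CPM in type IIb libraries. Phkb, a regulatory subunit of the kinase that activates it, had 86.2, 66.2 and 56.3 CPM in type I and 572, 727 and 307 CPM in type IIb libraries. Of the 15 glycogen genes 6 had log2 fold changes above 0 (median -0.57), and these 2 were called at log2 fold change -4.48 ± 0.79 SE, edgeR adjusted p = 0.00708 for Pygm and log2 fold change -2.94 ± 0.59 SE, edgeR adjusted p = 0.0210 for Phkb, with no overlap. Phka1, the alpha subunit, was not called at 127, 52.3 and 69.2 CPM in type I and 468, 792 and 549 CPM in type IIb libraries (edgeR adjusted p = 0.107). Ckm, the cytosolic muscle creatine kinase, had 179, 256 and 61.9 CPM in type I and 1043, 2115 and 1232 CPM in type IIb libraries. Ampd1, the muscle AMP deaminase, had 419, 267 and 168 CPM in type I and 1526, 1625 and 813 CPM in type IIb libraries. Both were lower without overlap (log2 fold change -3.14 ± 0.60 SE, edgeR adjusted p = 0.0151 for Ckm, log2 fold change -2.21 ± 0.48 SE, edgeR adjusted p = 0.0353 for Ampd1). Ckmt2, the mitochondrial creatine kinase, pointed the other way at 9255, 3557 and 2707 CPM in type I and 280.1, 571 and 1768 CPM in type IIb libraries but did not pass (log2 fold change 2.57 ± 0.64 SE, edgeR adjusted p = 0.113). Prkab2, a beta subunit of AMP-activated kinase, had 106, 15.0 and 99.2 CPM in type I and 554, 1089 and 759 CPM in type IIb libraries and was called (log2 fold change -3.45 ± 0.71 SE, edgeR adjusted p = 0.0258). Prkag3, a gamma subunit found mainly in fast fibres, had 0.498, 14.5 and 11.8 CPM in type I and 395, 238 and 153 CPM in type IIb libraries and was not (edgeR adjusted p = 0.234). The call was lost for Phkb without type I libraries 1, 2 or 3 or type IIb libraries 1 or 2 (adjusted p up to 0.189), Ckm without type I library 1 or type IIb library 2 (adjusted p up to 0.107), Ampd1 without type I libraries 2 or 3 or type IIb libraries 1 or 2 (adjusted p up to 0.218) and Prkab2 without type I libraries 1, 2 or 3 or type IIb library 2 (adjusted p up to 0.147). That of Pygm held without any one library. In the fit of the 6 trained libraries alone no gene of glycogen or of phosphocreatine and adenylate use was called. Without a robust prior no gene of phosphocreatine and adenylate use was called either, and without a filter 2 were called higher and none lower, with Ckmt2 among the 2. The call of Prkab2 was lost in all 3 of these fits.

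On the oxidative side a single gene passed. Idh2, the mitochondrial NADP-linked isocitrate dehydrogenase (chromosome 7, 80094846 to 80115392), had 1778, 1338 and 1071 CPM in type I and 91.0, 119 and 123 CPM in type IIb libraries, 11.3-fold higher in type I fibres (log2 fold change 3.65 ± 0.50 SE, edgeR adjusted p = 4.16e-04). No type IIb library came near the type I libraries. The call held whichever library was left out, but not in limma-voom (limma-voom adjusted p = 0.0703). It was the 1 call among 24 genes of the citric acid cycle and pyruvate entry, whose median log2 fold change was 0.16. Idh3a, a subunit of the NAD-linked enzyme of the same step, had 129, 89.5 and 83.0 CPM in type I and 364, 347 and 523 CPM in type IIb libraries, lower in every type I library but not called (log2 fold change -2.03 ± 0.62 SE, edgeR adjusted p = 0.317). Of 26 fatty acid genes 23 had log2 fold changes above 0 (median 1.93), against 6387 of all 11747 genes tested. In 10 of the 26 the groups separated with type I above, as in 6.72% of all genes tested. Yet edgeR called none (10 at an unadjusted p under 0.05, while DESeq2 called 2 and limma-voom 3, all higher). Fabp3, the muscle fatty acid binding protein, had 1703, 2342 and 553 CPM in type I and 205, 15.1 and 171 CPM in type IIb libraries (log2 fold change 3.55 ± 0.85 SE, edgeR adjusted p = 0.0806). Dgat2, which makes triglyceride, had 36.1, 47.6 and 23.0 CPM in type I libraries and no count in type IIb libraries (edgeR adjusted p = 0.278).

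No respiratory chain transcript passed the edgeR test. None of 72 nuclear genes of oxidative phosphorylation was called by edgeR, DESeq2 or limma-voom (8 at an unadjusted edgeR p under 0.05), and their median log2 fold change of 0.27 was close to the 0.21 of all genes tested. Ndufb3, a complex I subunit, was nearest to a call at 1447, 1095 and 633 CPM in type I and 324, 309 and 321 CPM in type IIb libraries (log2 fold change 1.73 ± 0.47 SE, edgeR adjusted p = 0.195). The 13 mitochondrially encoded genes all had log2 fold changes below 0 (median -0.56) and edgeR and DESeq2 called none (1 at an unadjusted edgeR p under 0.05), while limma-voom called 6 lower. Together they took 11.7, 24.5 and 3.96% of the counts in type I and 21.4, 19.8 and 20.7% in type IIb libraries. Type I library 2 lay above and type I libraries 1 and 3 below all type IIb libraries, so the groups overlap (difference -7.25 percentage points, p = 0.4 in the exact permutation test, and -2.54 without type I library 3). Of 11 regulators of mitochondrial biogenesis none was called in edgeR or DESeq2 and 1 in limma-voom (median 0.40, 1 at an unadjusted edgeR p under 0.05), among them Esrrg at 329.5, 34.5 and 178 CPM in type I and 0, 0 and 20.6 CPM in type IIb libraries (edgeR adjusted p = 0.614).

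**Figure D4:**
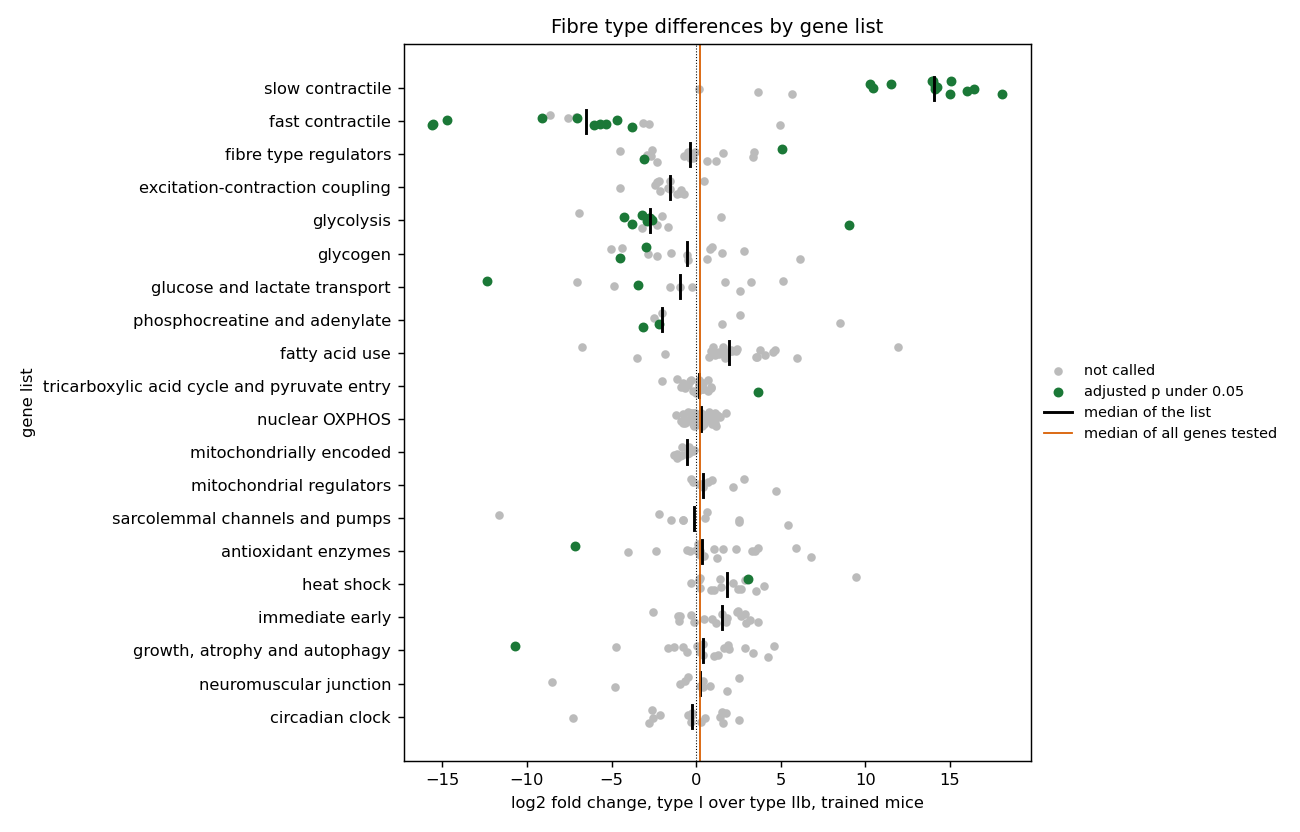
Log2 ratio of trained type I to trained type IIb fibres for every tested gene of 20 lists (rows). Each point is 1 gene, green points have an edgeR adjusted p under 0.05, short black lines mark the median of each list and the orange line marks the median of all genes tested (0.21). Slow contractile genes lie far to the right (median 14.04), fast contractile genes to the left (median -6.53) and nuclear OXPHOS genes around the median of all genes (0.27).

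Stress, growth and junction genes gave 3 calls. Cryab, alpha B-crystallin, a small heat shock protein that protects the sarcomere, had 6805, 5270.2 and 7327 CPM in type I and 680.4, 862 and 789.9 CPM in type IIb libraries. The libraries of each fibre type lay close together, with no overlap, and Cryab was 8.76-fold higher (log2 fold change 3.06 ± 0.37 SE, edgeR adjusted p = 1.19e-04), with 17.0% of its exon bases shared with Hspb2. It was the 1 call among 16 heat shock genes, of which 15 had log2 fold changes above 0 (median 1.84). Hspb1 had 1489, 518 and 1707 CPM in type I and 287, 206 and 113 CPM in type IIb libraries and came close (log2 fold change 2.62 ± 0.61 SE, edgeR adjusted p = 0.0687). Gpx3, the secreted glutathione peroxidase, had 0.124, 0.353 and 5.48 CPM in type I and 328, 272 and 290.2 CPM in type IIb libraries. Mstn, the growth inhibitor myostatin, had 0, 0 and 4 counts in type I libraries, against 147, 244 and 27.7 CPM in type IIb libraries. Neither overlapped, and they were the 1 call of 20 antioxidant genes and the 1 call of 20 growth, atrophy and autophagy genes (log2 fold change -7.19 ± 1.43 SE, edgeR adjusted p = 0.0210 for Gpx3, log2 fold change -10.71 ± 2.00 SE, edgeR adjusted p = 0.0125 for Mstn). The call of Cryab held without any one library but was lost in limma-voom (limma-voom adjusted p = 0.0715). The call was lost for Gpx3 and Mstn without type I libraries 1 or 2 or type IIb library 2 (adjusted p up to 0.0971 and 0.112). No gene was called by edgeR among 19 immediate early genes (median 1.54), 16 clock genes (-0.27), 11 genes of the neuromuscular junction (0.20) or 10 sarcolemmal channels and pumps (-0.13), with 3, 3, 1 and 2 genes at an unadjusted p under 0.05 in that order. DESeq2 called 1 junction gene and 1 channel or pump lower, and limma-voom 1 channel or pump higher. Fos, an immediate early gene, had 2165, 643 and 303 CPM in type I and 171, 144 and 92.0 CPM in type IIb libraries, apart but not called (log2 fold change 2.93 ± 0.72 SE, edgeR adjusted p = 0.108). Fibre type and the longer digestion of soleus cannot be told apart here.

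Outside these lists, 11 genes were called higher and 9 lower. Rrad, a small GTPase that restrains calcium channels, had 236, 234 and 1034 CPM in type I and 0, 0.182 and 0.866 CPM in type IIb libraries. Myl12a, a regulatory light chain of nonmuscle myosin, had 1298, 1174 and 1030.0 CPM in type I and 51.3, 112 and 102 CPM in type IIb libraries. Neither overlapped (log2 fold change 10.33 ± 1.33 SE, edgeR adjusted p = 2.42e-04 for Rrad, log2 fold change 3.72 ± 0.50 SE, edgeR adjusted p = 3.59e-04 for Myl12a), though Myl12a shares 19.9% of its exon bases with Myom1 and its paralog Myl12b, so its value is uncertain. Cyfip2, a subunit of the complex that drives actin branching, had 165, 90.0 and 57.7 CPM in type I libraries and no count in type IIb libraries (at least 784-fold higher, edgeR adjusted p = 0.0136). Dkk2, a secreted modulator of Wnt signalling, likewise had 20.4, 98.2 and 88.6 CPM in type I libraries and no type IIb count (at least 692-fold higher, edgeR adjusted p = 0.0302). Both were thus found in every type I library only. Pdlim1, a PDZ and LIM domain protein of the actin cytoskeleton, had 260.0, 729 and 263 CPM in type I and 0, 0 and 72 counts in type IIb libraries (edgeR adjusted p = 0.0261). Khdrbs3, an RNA-binding splicing factor, had 224, 323 and 81.5 CPM in type I and 0, 0 and 1.30 CPM in type IIb libraries (edgeR adjusted p = 0.0301). In type IIb fibres both were seen in library 3 alone. The transcripts Gm34302, Gm5532, Gm43359 and Novel00606 had no type IIb count and were at least 1135, 766, 804 and 545 times higher in type I fibres. Gm43359 lies within Atp2a2 on the same strand. Atp2a2 had 368848 counts in type I and 229 in type IIb libraries, against 3472 and none for Gm43359. Whether reads given to Gm43359 belong to Atp2a2 was not tested, so its value is uncertain. Novel00606 has no gene identifier of Ensembl. Ift81, a gene of cilium transport next to Atp2a2, had 695, 179 and 125 CPM in type I and 0, 0 and 0.866 CPM in type IIb libraries (edgeR adjusted p = 0.0469). Leaving out 1 library kept the calls of Rrad, Myl12a and Gm34302, and the call was lost for Cyfip2 and Gm5532 without type I library 1 or type IIb libraries 2 or 3 (adjusted p up to 0.0608 and 0.0803), Dkk2 and Novel00606 without type I libraries 2 or 3 or type IIb libraries 1, 2 or 3 (adjusted p up to 0.128 and 0.117), Pdlim1 without type I libraries 1, 2 or 3 or type IIb library 2 (adjusted p up to 0.222), Khdrbs3 without type I libraries 1 or 2 or type IIb libraries 1 or 2 (adjusted p up to 0.140), Gm43359 without type I library 3 or type IIb libraries 2 or 3 (adjusted p up to 0.0778) and Ift81 without type I libraries 1, 2 or 3 or type IIb libraries 1 or 2 (adjusted p up to 0.267).

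On the lower side, Tspan8, a tetraspanin of the cell membrane (chromosome 10, 115816832 to 115849893), had no count in type I libraries, against 191, 320.3 and 149 CPM in type IIb libraries (at least 2543-fold lower, edgeR adjusted p = 3.76e-05). The transcript 2310065F04Rik, known in mice as linc-MYH and transcribed beside the fast myosin genes, had 0, 0 and 1 counts in type I libraries, against 477, 211 and 347 CPM in type IIb libraries (edgeR adjusted p = 0.00833). Prr33 had no count in type I libraries, against 6.07, 304 and 229.8 CPM in type IIb libraries (edgeR adjusted p = 0.0307), and lies over Tnnt3 on the other strand. Tnnt3 had 2014 counts in type I and 742393 in type IIb libraries, against none and 4898 for Prr33. Whether reads given to Prr33 belong to Tnnt3 was not tested, so its value is uncertain. The type IIb libraries differed widely for Prr33 and less so for Tspan8 and 2310065F04Rik. Cib2, a calcium- and integrin-binding protein, had 0, 0 and 11 counts in type I libraries, against 181, 615 and 245 CPM in type IIb libraries (edgeR adjusted p = 0.00519). Prss23, a serine protease, had 0, 0 and 2 counts in type I libraries, against 126, 102 and 58.8 CPM in type IIb libraries (edgeR adjusted p = 0.0241). Actc1, cardiac alpha-actin, had 2.74, 14.6 and 41.2 CPM in type I and 580.2, 452 and 108 CPM in type IIb libraries (edgeR adjusted p = 0.0430). None of these overlapped, and Actc1 came closest. Ddit4l, an inhibitor of mTOR signalling, had 38.2, 92.0 and 23.6 CPM in type I and 872, 660.2 and 389 CPM in type IIb libraries (log2 fold change -3.64 ± 0.64 SE, edgeR adjusted p = 0.00708). Sar1b, a GTPase of transport vesicles, had 205, 309 and 80.6 CPM in type I and 2261, 1306 and 1005 CPM in type IIb libraries (log2 fold change -2.94 ± 0.53 SE, edgeR adjusted p = 0.00833). Mylf-ps, a pseudogene of a myosin light chain whose reads may belong to its parent gene, was 29.5-fold lower (edgeR adjusted p = 0.00833). Tspan8 and Sar1b stayed called whichever library was left out, and the call was lost for 2310065F04Rik and Prss23 without type I libraries 1, 2 or 3 or type IIb library 2 (adjusted p up to 0.353 and 0.124), Prr33 without type I libraries 1, 2 or 3 or type IIb libraries 2 or 3 (adjusted p up to 0.134), Cib2 without type IIb library 2 (adjusted p up to 0.0545), Actc1 without type I libraries 1 or 2 or type IIb libraries 1 or 2 (adjusted p up to 0.424) and Ddit4l and Mylf-ps without type I library 1 (adjusted p up to 0.0554 and 0.0608).

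Untrained mice, whose 6 libraries are separate from these, gave all 63 genes the same direction of fibre type difference, as they did 57.1% of all genes tested. In untrained mice 54 genes were called (0.46%), and 26 of the 28 higher and 21 of the 35 lower genes of trained mice were among them. The 16 others were Vgll2 and Ift81, higher in type I fibres, and 14 lower ones, including Pvalb, Slc16a3, Gpx3, Pygm, Ckm, Tpi1, Pkm and Ampd1. Slc16a3 had a log2 fold change of -12.34 in trained and -4.67 in untrained mice (edgeR adjusted p = 0.230 in untrained mice). For Gpx3 it was -7.19 in trained and -1.27 in untrained mice, and for Pvalb -15.55 in trained and -9.50 in untrained mice. In the other direction, Pdlim1 had 7.86 in trained and 15.61 in untrained mice, and Idh2 3.65 in trained and 5.38 in untrained mice. The difference itself, tested as an interaction, passed for no gene (0.0%), with a smallest adjusted p of 0.418 in edgeR, although 8.94% of all genes had an unadjusted p under 0.05. For the 63 genes the unadjusted interaction p was under 0.05 in 16, which were chosen on the same trained libraries. The smallest was 9.05e-04, for Slc16a3 (edgeR adjusted p = 0.418). Other fits gave other counts, 390 genes in DESeq2 (3 of the 63, namely Gpx3, Pvalb and Slc16a3), 26 in edgeR without a filter (5 of the 63, namely Myl2, Myl3, Pdlim1, Tnnc1 and Tpm3) and 3 in limma-voom (none of the 63). The edgeR fit thus does not show that a fibre type difference called in trained and not in untrained mice differs between them, and DESeq2 gave such a difference for 3 of these genes.

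**Figure D5:**
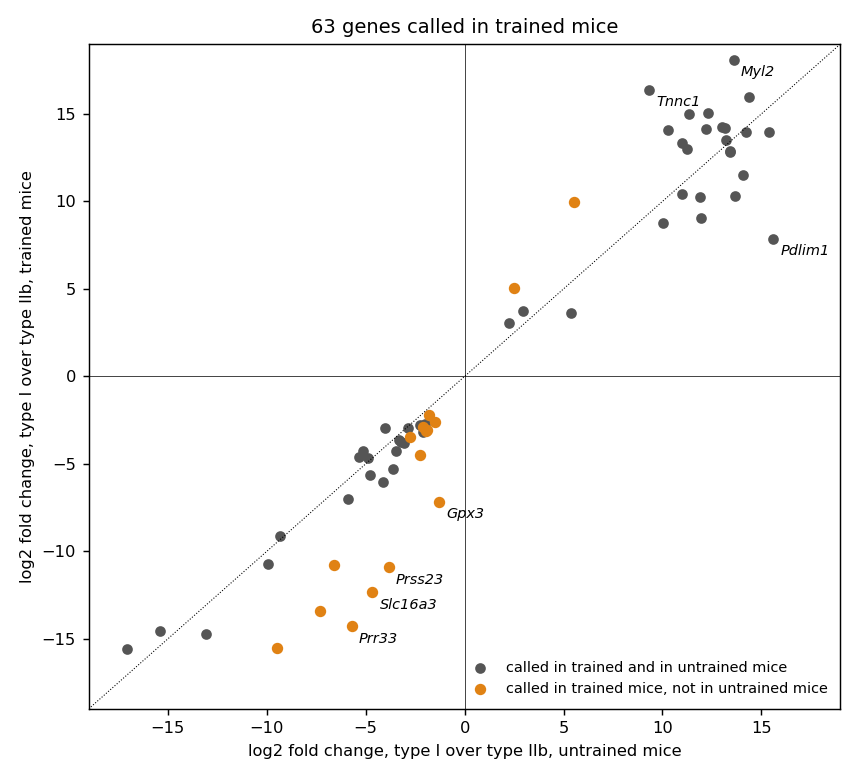
Log2 ratio of type I to type IIb fibres in trained mice (vertical axis) and in untrained mice (horizontal axis) for the 63 genes called in trained mice. Each point is 1 gene, orange points were not called in untrained mice, and the dotted line marks equal fold changes. All 63 points have the same sign on both axes; the orange points include Slc16a3 (-12.34 in trained, -4.67 in untrained mice) and Gpx3 (-7.19 and -1.27 in the same order).

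Markers of other cell types were uneven between libraries and gave no edgeR call between fibre types among 38 tested, with 7 at an unadjusted p under 0.05. Of the endothelial markers tested 10 had log2 fold changes below 0 and 1 above (median -2.53), while all 4 erythroid ones were above 0 (median 2.10). Mural markers (5 above, 3 below) and fibroblast markers (3 above, 5 below) were mixed. Other fits called a few of the 38 markers. DESeq2 called 2 higher in type I fibres (Cspg4 and Mfap5) and 4 lower (Cdh5, Esam, Kcnj8 and Lum), and edgeR without a filter called Rgs5, a mural marker, lower (log2 fold change -7.79, edgeR adjusted p = 0.0440). The summed level of 12 endothelial markers, in CPM of library total, was 1.24, 224.3 and 13.4 in type I and 0, 0.498 and 285.6 in type IIb libraries. All 12 were at 0 in type IIb library 1, 11 in type IIb library 2 and none in type IIb library 3. The 9 mural markers summed to 60.7 to 362.6 in type I and 28.3 to 252.2 in type IIb libraries, mostly through Abcc9, a channel subunit that muscle fibres also express. The 9 fibroblast markers summed to 115.7, 54.9 and 45.5 in type I and 0.105, 19.4 and 168.7 in type IIb libraries. Erythroid markers summed to 89.9, 66.2 and 37.4 in type I and 0.105, 0 and 52.3 in type IIb libraries. For both lists type IIb libraries 1 and 2 lay below all type I libraries and type IIb library 3 did not. Satellite cell markers summed to 0.103 to 40.7 in type I and 0 to 46.5 in type IIb libraries, and immune markers to 0 to 53.9 in type I and 0 to 1.11 in type IIb libraries. Schwann, tendon and adipocyte markers summed to at most 11.1 in any library. The part of these cells in the fibre type differences was not tested, but without the library of each fibre type with the highest endothelial markers (type I library 2 and type IIb library 3, a choice made after seeing the data) 27 genes were called higher and 23 lower. Of the 63 genes, 14 higher and 21 lower ones were among them.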

How the data were processed

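The authors deposited whole-number read counts per gene for the 12 libraries, not normalised, and FPKM values, which divide each count by gene length and library size. Each deposited FPKM value equalled its count divided by length and total within 0.1% for 94.5% of nonzero values. Per the labels' protocols, complementary DNA was made with the SMART-Seq HT kit and libraries with Nextera XT, a kit without strand information. Per the submitters' processing notes, reads were handled with TopHat2 on build mm10, and no version or counting program is given there. Coordinates and symbols are those of the deposited table.

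Counts were compared by edgeR 4.0.16 in R 4.3.3 (quasi-likelihood, robust, TMM), in 1 fit of 12 libraries with a mean per group, after edgeR's expression filter (minimum count 10, minimum total 15), which left 11747 genes. SE is the size of the log2 fold change over the root of edgeR's F statistic. Folds compare pooled counts per pooled TMM-scaled library size, as a lower bound from 3 counts over the group where it had none, and with a 95% exact counting interval where it had 1 to 3. Intervals and floors cover counting error only. On data simulated with a dispersion of 0.5 the test recovered 26% of 8-fold and 97% of 64-fold changes, with 4 false calls among 11747 genes. That dispersion was set, not estimated from these data, and the changed genes were drawn from those with more counts. The shares recovered therefore need not hold for the real libraries, where Tnnt3, at a log2 fold change of -8.65, was not called. No other columns of samples were present (0 unused).

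Named genes were every called list member, the 10 higher and 10 lower other called genes of smallest adjusted p, the 2 uncalled members of smallest p in each list, and the 4 myosin heavy chains. Some genes that met this rule are not reported here. The 11th higher gene outside the lists, Mybpc1, Tnnt3, Slc16a1 and the members of isoform pairs were named after their values were seen. The members, lists and tests were chosen with earlier results of these data known. Alternatives were DESeq2 1.42.0, voom with quality weights (limma 3.58.1), RLE size factors, no robust prior, no filter, only the groups compared, a replicate block and leaving out libraries. Promoters came from RefSeq.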

Additional observations from a re-analysis of the deposited data

How the results depend on the processing

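All 63 genes kept their direction under every alternative and every left-out library in which they were tested. In all 6 fits that left out 1 trained library, 26 stayed called. Of these, 8 were also called under every alternative that gave them an adjusted p (Ankrd2, Casq1, Mybpc2, Myh7, Myl12a, Myom3, Rrad and Tspan8). Rrad had an adjusted p in 8 of the 9 alternatives, and DESeq2 did not call it. Against 28 genes higher and 35 lower, DESeq2 called 208 higher and 138 lower, limma-voom with quality weights 94 and 36 (15 and 18 of them among the 63), and the count table without a filter 45 and 36. A fit of the 6 trained libraries alone called 21 higher and 18 lower. Without the library of each fibre type with the highest endothelial markers 23 were lower. Leaving out 1 library gave 13 to 38 higher and 16 to 31 lower. RLE size factors gave 23 and 33, and edgeR without a robust prior 24 and 28. The cause of these shifts was not tested.

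The interaction, 0 genes in the edgeR fit, gave 26 without a filter, 390 in DESeq2 and 3 in limma-voom. It gave 1 without the library of each fibre type with the most genes, 2 without those with the highest endothelial markers, and 0 to 2 on leaving out 1 library. The difference in genes detected ran from -744.8 to 3050 on leaving out 1 library, and that of the mitochondrial share from -12.8 to -2.54 percentage points. Same-numbered trained libraries correlated in their deviations from the group means with 0.05, -0.01 and 0.20. Trained libraries of unlike number correlated with -0.14 to 0.06. Whether the numbers pair the samples cannot be told from these values, as the labels name no animals. A fit with a replicate block called 26 higher and 32 lower (16 and 28 of them among the 63) and 1 gene for the interaction. Over all genes the median log2 fold change was 0.21, but -0.34 without type I library 3 and 1.44 without type IIb library 3.

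Among genes that edgeR did not call with its filter, signs turned for Rgs5 (4.96 without the libraries with the most genes) and Myf5 (1.99 with the replicate block, 2.51 in limma-voom, 8.42 without the libraries with the most genes and 9.63 without those with the highest endothelial markers). On leaving out 1 library log2 fold changes ran from -12.25 to 4.49 for Rgs5, -1.80 to 9.59 for Myf5, -5.38 to 9.41 for Cd68 and -0.55 to 8.23 for Scx.

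On counts simulated with a dispersion of 0.5, which was not estimated from these data, 26% of 8-fold changes were recovered. The smallest folds called in these data were 4.89 (Ampd1) to 7.58 (Pgam2). Genes with few counts in the lower fibre type have folds that rest on counting floors.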

Other observations

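Transcripts beside or over called genes had uneven counts in several places, and those given here were picked after their values were seen. None of them passed the test (edgeR adjusted p between 0.209 and 0.618). Myhas, an antisense transcript that starts 456 bases from Myh4, had 0, 0 and 0.0445 CPM in type I and 3.23, 64.5 and 78.0 CPM in type IIb libraries (edgeR adjusted p = 0.209). Within Atp2a2, Gm43361 on the other strand had 0.622, 3.65 and 53.7 CPM in type I and 0.258, 0.546 and 0 CPM in type IIb libraries. Gm43360, on the same strand as Atp2a2, had 0.124, 10.1 and 6.99 CPM in type I and 0, 0 and 0.289 CPM in type IIb libraries, which overlap (edgeR adjusted p = 0.618). Over Aldoa, Fam57b had 2 counts in type I and 378 counts in type IIb libraries, nearly all in type IIb library 3. Over Atp2a1, Rabep2 had 0.124, 0 and 0 CPM in type I and 0, 1.09 and 28.8 CPM in type IIb libraries, so it too rests on type IIb library 3. Gm44646, over Mybpc2 on the other strand, had no count in type I and 0, 2.55 and 4.98 CPM in type IIb libraries. Myh6, the alpha heavy chain of heart beside Myh7, had 3.11, 0 and 2.76 CPM in type I and no count in type IIb libraries. Reads of opposite strands cannot be told apart in these libraries.

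For 2 neighbours the fibre types overlapped at higher levels. Myom1, which overlaps Myl12a, had 633.8, 376.1 and 577.0 CPM in type I and 561.3, 458.2 and 703.3 CPM in type IIb libraries (edgeR adjusted p = 1.00). Hspb2, which shares exon bases with Cryab, had 37.1, 38.2 and 34.7 CPM in type I and 10.6, 61.9 and 21.2 CPM in type IIb libraries.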
